A study of Mus musculus with 9 samples.

Results

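EZH2 peaks that carried H3K27me3 without a called SUZ12 peak were examined in MYCN-driven T cell lymphoma cells from the thymus of C57BL/6J mice. By its title, the series concerns EZH2 acting as an activator under MYCN, so EZH2 sites with and without the Polycomb mark can be set apart. The peaks were chosen by the deposited calls themselves: an EZH2 peak was taken when it overlapped a peak of the H3K27me3 list by at least 1 bp and no peak of the SUZ12 list, on chromosomes 1 to 19, X and Y. This held for 1674 of 18730 EZH2 peaks, or 8.94% (95% Wilson interval 8.54 to 9.35%), called here the H3K27me3-only EZH2 peaks. They are set beside the 8374 EZH2 peaks with both SUZ12 and H3K27me3 and the 8612 with neither. The series held 9 samples from 1 strain and tissue with no other genotype or treatment group: 7 ChIPmentation libraries with 1 antibody each (EZH2, SUZ12, H3K27me3, H3K4me3, H3K27ac, N-MYC and p300) and 2 inputs. ChIPmentation is chromatin immunoprecipitation in which a transposase adds the sequencing adapters on the beads. The labels give neither the promoter that drives MYCN nor the animal behind each immunoprecipitation.

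EZH2 is the methyltransferase subunit of Polycomb repressive complex 2, and SUZ12 is a core subunit that holds the complex together. The complex writes H3K27me3, is recruited to CpG-rich promoters of developmental genes, and can spread the mark outward because another subunit, EED, binds it. In thymocytes this system keeps genes of other lineages silent, while H3K4me3 and H3K27ac mark active promoters and p300 is an acetyltransferase that writes H3K27ac.

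Each antibody had a single library, so differences could not be checked against replicates and no p-values were computed. Intervals cover counting error within the deposited lists, treat peaks as independent, and do not describe variation between tumours. Read depth is unknown, so a missing SUZ12 peak means that none was called, not that SUZ12 was absent. The labelled cell type was checked at gene starts: all 10 T-cell markers with a listed start carried H3K4me3, against 2 of 4 B-cell markers (Cd79a and Blnk), 1 of 5 myeloid markers (Cebpa) and 1 of 6 thymic epithelial markers (Epcam). H3K27ac was called at 10 of the 10, 1 of the 4, 1 of the 5 and 3 of the 6. RNA levels were not measured in these samples, and the part of other cells in the results was not tested.

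The promoters that illustrate the H3K27me3-only EZH2 peaks best fall into 3 kinds, and 2 of each are shown as the 250 bases before the gene start, 5′ to 3′, with CG dinucleotides in capitals (RefSeq, build GRCm38.p6). Syn1 (synapsin 1, a synaptic vesicle protein, minus strand, chrX:20920919-20921168) and Vldlr (a lipoprotein receptor, plus strand, chr19:27216770-27217019) lay far from any SUZ12 peak and carried no active mark. Mt3 (a metallothionein of the brain, plus strand, chr8:94152357-94152606) and Phka1 (a phosphorylase kinase subunit, minus strand, chrX:102644247-102644496) lay beside a SUZ12 peak. The peaks at Bcl11b (a T-lineage commitment factor, minus strand, chr12:108003415-108003664) and Id3 (an inhibitor of E proteins, plus strand, chr4:136143572-136143821) carried all 4 active lists. The Id3 peak, from 136143861 to 136145505, began after the gene start, so the bases printed for Id3 lie outside it.
Syn1: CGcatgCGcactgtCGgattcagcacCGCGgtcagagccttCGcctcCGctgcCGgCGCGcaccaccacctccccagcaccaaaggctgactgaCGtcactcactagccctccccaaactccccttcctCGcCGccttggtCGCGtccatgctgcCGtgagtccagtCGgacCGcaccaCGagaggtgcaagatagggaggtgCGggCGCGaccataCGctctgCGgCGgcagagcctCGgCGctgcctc
Vldlr: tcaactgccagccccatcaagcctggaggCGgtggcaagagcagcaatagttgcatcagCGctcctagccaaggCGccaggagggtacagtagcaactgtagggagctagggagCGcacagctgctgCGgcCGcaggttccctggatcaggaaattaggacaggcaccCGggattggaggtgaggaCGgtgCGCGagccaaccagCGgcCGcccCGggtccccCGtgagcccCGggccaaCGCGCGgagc
Mt3: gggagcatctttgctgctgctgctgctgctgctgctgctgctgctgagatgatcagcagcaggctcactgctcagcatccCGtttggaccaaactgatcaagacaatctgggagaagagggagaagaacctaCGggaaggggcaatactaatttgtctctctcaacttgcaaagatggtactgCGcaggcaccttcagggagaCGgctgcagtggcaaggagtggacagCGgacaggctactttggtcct
Phka1: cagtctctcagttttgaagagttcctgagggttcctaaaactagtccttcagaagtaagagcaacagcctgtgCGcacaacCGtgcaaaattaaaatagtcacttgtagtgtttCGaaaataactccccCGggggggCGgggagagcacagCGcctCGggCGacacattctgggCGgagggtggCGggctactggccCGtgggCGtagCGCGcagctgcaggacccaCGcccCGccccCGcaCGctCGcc
Bcl11b: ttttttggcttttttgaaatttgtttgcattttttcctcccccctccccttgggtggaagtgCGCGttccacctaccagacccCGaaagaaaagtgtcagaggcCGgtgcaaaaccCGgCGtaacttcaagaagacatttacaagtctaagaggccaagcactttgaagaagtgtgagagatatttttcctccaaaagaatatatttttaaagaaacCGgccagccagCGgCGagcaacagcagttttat
Id3: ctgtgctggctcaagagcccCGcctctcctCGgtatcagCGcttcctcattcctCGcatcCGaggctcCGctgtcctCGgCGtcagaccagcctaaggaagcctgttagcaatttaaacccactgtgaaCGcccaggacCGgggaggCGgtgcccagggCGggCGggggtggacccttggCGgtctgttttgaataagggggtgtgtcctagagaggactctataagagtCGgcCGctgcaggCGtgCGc
These 250 bases held 27 CG dinucleotides at Syn1, 18 at Vldlr, 5 at Mt3, 19 at Phka1, 9 at Bcl11b and 18 at Id3. The count thus ran from 5 to 27 among the 4 promoters without an active list, a range that took in both active ones.

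Most H3K27me3-only EZH2 peaks, counted one by one, were neighbours of SUZ12. When EZH2 peaks within 3 kb of each other were first joined, 33.4% of the 515 regions that then met the rule were. For the single peaks the distance to the nearest SUZ12 peak had a median of 467 bp, with quartiles of 154 and 2403 bp. Of the 1674 peaks, 867 (51.8%, 49.4 to 54.2%) lay within 500 bp of a SUZ12 peak and 1275 (76.2%, 74.1 to 78.1%) within 3 kb, where 53.0% of all EZH2 peaks lay within 3 kb of SUZ12 or on it. For EZH2 peaks with neither feature the median distance was 134274 bp, and 2.40% (2.10 to 2.75%) lay within 3 kb. The rule had set SUZ12 overlap to none, so these distances are a description. SUZ12 was called within 3 kb on both sides of 355 peaks (21.2%), on 1 side of 920 (55%) and on neither side of 399 (23.8%).

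**Figure D1:**
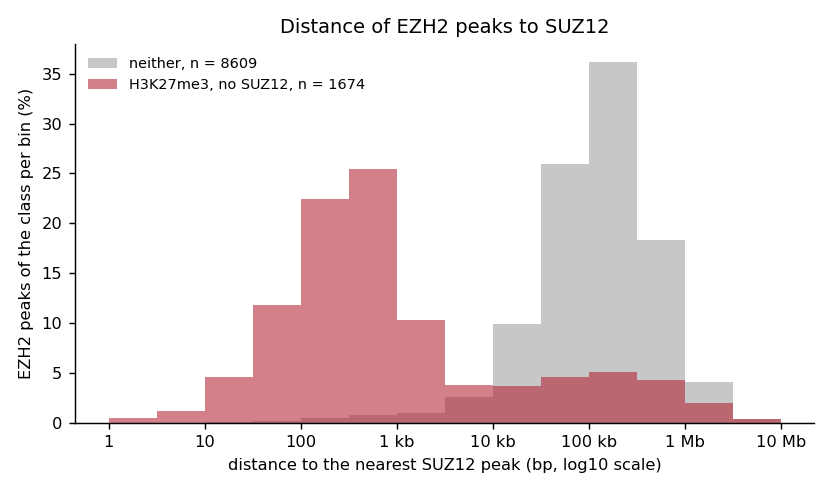
Percentage of EZH2 peaks per bin of distance to the nearest SUZ12 peak (x axis, bp on a log10 scale) for the H3K27me3-only peaks (red) and the peaks with neither feature (grey; 3 peaks on Y have no SUZ12 peak on the chromosome). The red distribution is centred near its median of 467 bp with a tail beyond 100 kb, and the grey one near 134274 bp.

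The neighbouring SUZ12 peaks were of ordinary strength for the SUZ12 list, but weaker than those at EZH2 peaks with both features. Among the 1275 peaks within 3 kb, the nearest SUZ12 peak had a median fold enrichment (the authors' ratio of signal over background) of 3.99, with quartiles of 3.51 and 4.97. Over all 11100 SUZ12 peaks the median was also 3.99, with quartiles of 3.5 and 4.97. SUZ12 peaks at EZH2 peaks with both features had a median of 5.16, with quartiles of 4.07 and 7.31. At EZH2 widths of 200 to 300 bp that median was 4.48, against 3.99 for the neighbours of H3K27me3-only peaks. The nearest EZH2 peak with both features lay a median of 638 bp away from these 1275 peaks.

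The surrounding H3K27me3 territory mostly held SUZ12 as well. When H3K27me3 peaks within 3 kb of each other were joined into 24143 domains, 1259 domains contained an H3K27me3-only EZH2 peak, and 303 of these held 2 or more. All but 1 of the 1275 peaks within 3 kb of SUZ12 lay in a domain with SUZ12 (52.5% over all EZH2 peaks). Joining over that same distance largely gives this result, but only where the SUZ12 peak itself overlaps H3K27me3. Of the 149 peaks at 3 to 50 kb, 98 lay in a domain with SUZ12. Of the 250 peaks beyond 50 kb, 1 did. The median width of the domain was 19055 bp for all H3K27me3-only peaks and 6240 bp for those beyond 50 kb, against 23098 bp for EZH2 peaks with both features.

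The HoxB cluster, which encodes positional homeodomain factors, lay in 1 of the 3 domains with most of these peaks. This domain, on chromosome 11 from 96080410 to 96324863, spanned 244 kb and held 7 H3K27me3-only EZH2 peaks among 28 EZH2 peaks with both features and 41 SUZ12 peaks. The domain at Itsn1, an endocytic scaffold gene, on chromosome 16 from 91729252 to 91901314, also held 7, with 5 of the other class and 13 SUZ12 peaks. A domain at Rhbg, an ammonium transporter gene, on chromosome 3 from 88192562 to 88272635, held 7, with 14 of the other class and 15 SUZ12 peaks.

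At the SUZ12 edge of the rule the peaks on either side had close values. The 168 H3K27me3-only peaks with a SUZ12 peak no more than 50 bp away had a median EZH2 fold enrichment of 3.99 and a median width of 276 bp. Just across the edge, 201 EZH2 peaks overlapped SUZ12 by at most 50 bp, with medians of 3.99 and 263 bp. On the H3K27me3 side, 29 peaks overlapped the mark by at most 50 bp and 29 EZH2 peaks without the mark came within 50 bp of it. At least 1 active list was called at 13 of the former (44.8%, 28.4 to 62.5%) and 20 of the latter (69.0%, 50.8 to 82.7%), where 53.9% of all EZH2 peaks overlapped at least 1. Well inside the rule, 1450 peaks lay wholly within an H3K27me3 peak.

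H3K27me3-only peaks were among the weaker and narrower entries of the EZH2 list. Their EZH2 fold enrichment had a median of 4.02 with quartiles of 3.68 and 4.44, against medians of 4.64 with both features and 5.20 with neither. Their median width was 263 bp, against 557 bp and 551 bp. At widths of 200 to 300 bp the median EZH2 fold enrichment was 3.92, against 3.93 with both features and 4.19 with neither. At 400 to 800 bp it was 4.26, against 4.42 and 5.33. The gap to peaks with both features was thus small at like widths. They made up 19.4% of the second decile of EZH2 fold enrichment (363 of 1873 peaks) and 0.267% of the strongest (5 of 1873). The H3K27me3 peak under them had a median fold enrichment of 11.3, with quartiles of 8.23 and 14.8, against 13.6 under EZH2 peaks with both features. Across the 1674 peaks the EZH2 and H3K27me3 fold enrichments were nearly unrelated (Spearman rho -0.0465, a description over peaks of 2 libraries).

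**Figure D2:**
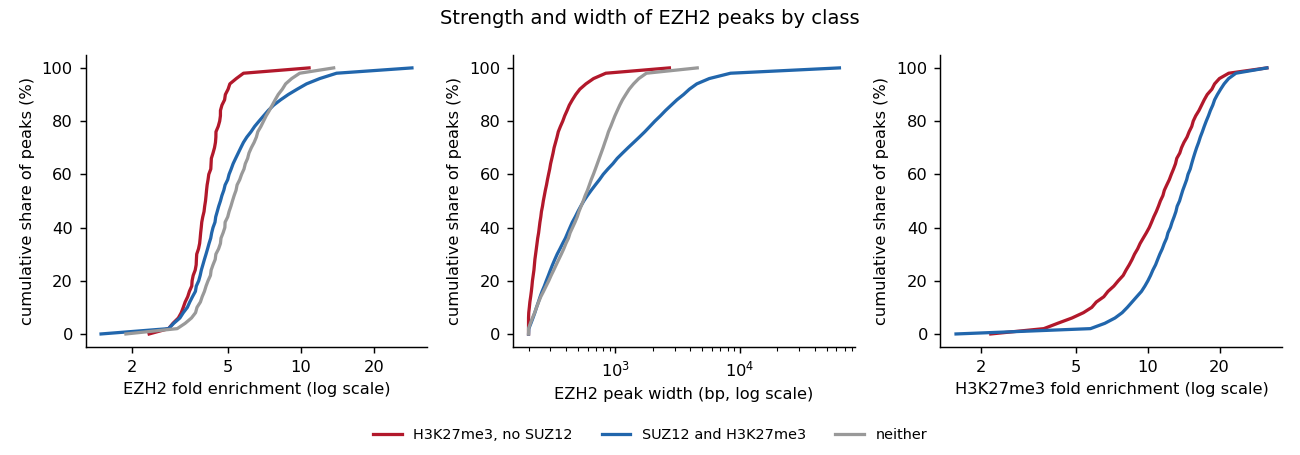
Cumulative percentage of EZH2 peaks (y axis) by EZH2 fold enrichment, EZH2 peak width in bp, and fold enrichment of the overlapped H3K27me3 peak (x axes, log scales) for H3K27me3-only peaks (red), peaks with both features (blue) and peaks with neither (grey). The red curves lie to the left, with medians of 4.02, 263 bp and 11.3.

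H3K27me3 was also weaker away from SUZ12. The fold enrichment of the overlapped H3K27me3 peak had a median of 12.5 at the 1275 peaks within 3 kb of SUZ12 and 8.07 at the 399 farther away. The median width of that H3K27me3 peak was 7539 bp and 3289 bp. EZH2 fold enrichment had close medians in these groups, 4.0 and 4.07.

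The 6 peaks with the strongest H3K27me3 lay within 1371 bp of SUZ12, and none overlapped an active list. The first lay 7881 bp from Evx1, a homeobox gene beside the HoxA cluster, on chromosome 6 from 52326270 to 52326529, with a fold enrichment of 31.6 for H3K27me3 and 4.61 for EZH2, 439 bp from SUZ12. Both peaks inside Nr2f2, which encodes an orphan nuclear receptor, shared an H3K27me3 peak of 40685 bp with a fold enrichment of 26.7, and lay 637 and 218 bp from SUZ12. A peak 8738 bp from Foxc1, a forkhead factor gene, had 26.5 for H3K27me3 and 3.90 for EZH2. The H3K27me3-only EZH2 peaks of these loci were thus small and lay within very wide H3K27me3 peaks. Near Evx1 the same H3K27me3 peak also held EZH2 peaks with both features, with fold enrichments of 13.3, 9.14 and 4.64.

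The other 2 of these peaks lay at Npr3, which encodes a natriuretic peptide clearance receptor, and inside Ebf1, which encodes a B-lineage factor. The Npr3 peak, on chromosome 15 from 11907982 to 11908199, had 26.5 for H3K27me3 and 3.77 for EZH2, 228 bp from SUZ12. The Ebf1 peak, on chromosome 11 from 44621614 to 44621957, had 26.2 and 5.83, 155 bp from SUZ12.

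**Figure D3:**
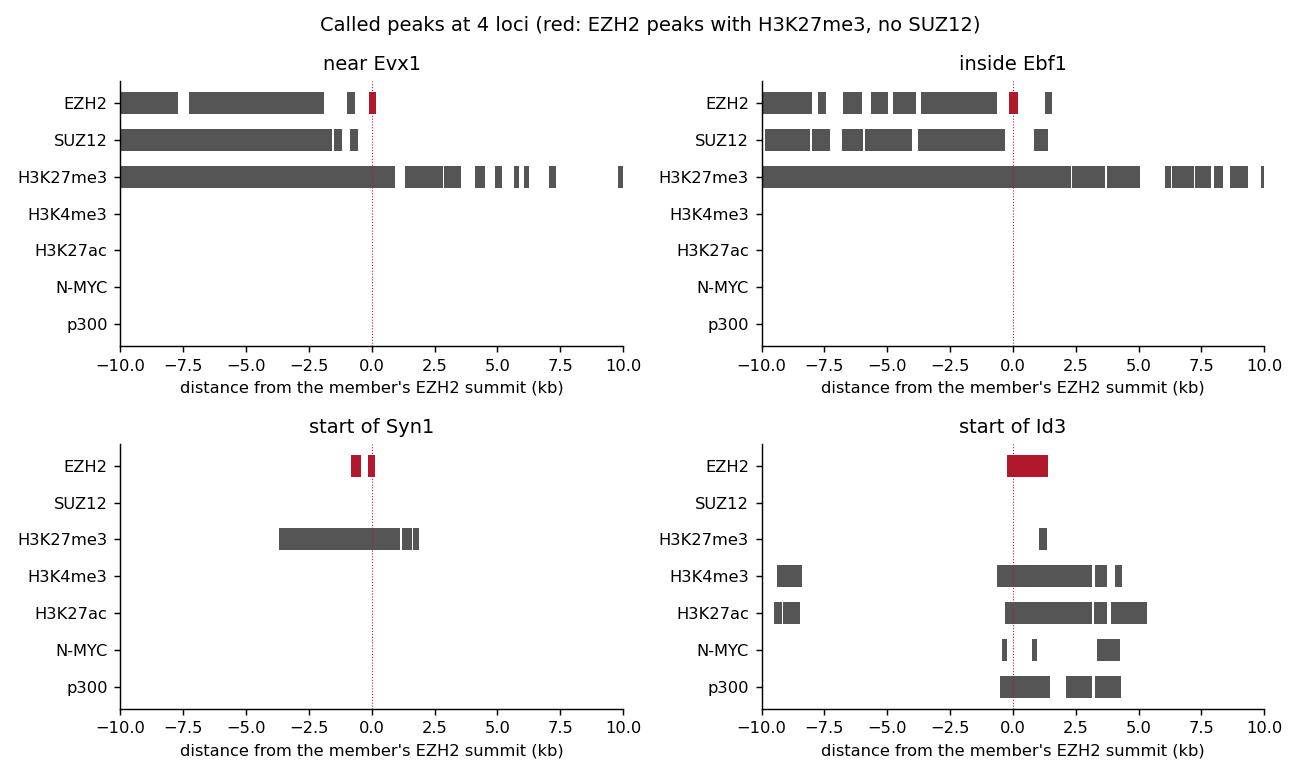
Called peaks of the 7 lists (rows) within 10 kb of the EZH2 summit (x axis, kb) of 4 H3K27me3-only EZH2 peaks. All EZH2 peaks of this class in a window are red. Near Evx1 and inside Ebf1 the peak lies beside SUZ12 peaks within a wide H3K27me3 peak. At Syn1 the window has H3K27me3 and no SUZ12. At Id3 a narrow H3K27me3 peak, 1025 to 1358 bp from the EZH2 summit, lies inside an H3K4me3 peak and an H3K27ac peak.

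Active lists, which the rule did not use, were called at few of these peaks. H3K4me3 was overlapped by 216 of 1674 (12.9%, 11.4 to 14.6%), where 52.7% of all EZH2 peaks overlapped it. H3K27ac was overlapped by 152 (9.08%, background 48.8%), N-MYC by 51 (3.05%, background 32.3%) and p300 by 46 (2.75%, background 40.8%). None of the 4 lists was called at 1436 peaks (85.8%), where 53.9% of all EZH2 peaks overlapped at least 1. H3K4me3 with H3K27ac and neither factor was the most frequent combination, at 84 peaks, followed by H3K4me3 alone at 73.

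Next to EZH2 peaks with both features, the H3K27me3-only peaks had 3.18 percentage points less H3K4me3 (95% Newcombe interval -4.90 to -1.32, lower on 16 of 20 chromosomes). This direction turned when peaks of 200 to 300 bp were compared. At that width H3K4me3 was met by 8.10% of the H3K27me3-only peaks and 5.71% of those with both, a difference of 2.39 points (0.533 to 4.41, higher on 15 of 20 chromosomes). At 400 to 800 bp the shares were 25.6% and 12.3%, a difference of 13.3 points (8.06 to 19.3). H3K27ac differed by 1.06 points over all widths (-0.363 to 2.63), N-MYC by -0.237 (-1.06 to 0.767) and p300 by 0.264 (-0.505 to 1.21), so each of these 3 intervals included 0. At 400 to 800 bp the shares were 19.1% against 6.74% for H3K27ac, 6.5% against 1.93% for N-MYC and 6.10% against 1.47% for p300, with intervals of the difference above 0, although N-MYC was higher on 7 chromosomes and lower on 6. At 200 to 300 bp, which held 1062 of the 1674 peaks, H3K27ac differed by 1.96 points (0.511 to 3.59), while the intervals for N-MYC (-0.0922 to 1.31) and p300 (-0.532 to 0.554) included 0.

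Peaks farther from SUZ12 carried the active lists more often. They also lay within 1 kb of a listed gene start more often, 37.6% beyond 3 kb against 16.3% within it. H3K4me3 was called at 34.9% of the H3K27me3-only peaks at starts and 6.91% of the others. The parts of distance and of gene starts were not tested apart. H3K4me3 was called at 28.6% (24.4 to 33.2%) of the 399 peaks beyond 3 kb and at 8.0% (6.63 to 9.62%) of the 1275 within it, a difference of 20.6 points (16.1 to 25.4) that had the same sign on all 18 chromosomes with at least 10 peaks in each group. For H3K27ac the shares were 21.8% and 5.10% (difference 12.7 to 21.1 points), higher beyond 3 kb on 17 of 18 chromosomes. N-MYC was called at 8.02% and 1.49%, and p300 at 7.02% and 1.41%. Peaks beyond 50 kb had the highest share of H3K4me3, 36.8% (31.1 to 42.9%), above the 16.1% of EZH2 peaks with both features by 20.7 points (14.9 to 26.9). At 156 of these 250 peaks none of the 4 active lists was called.

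**Figure D4:**
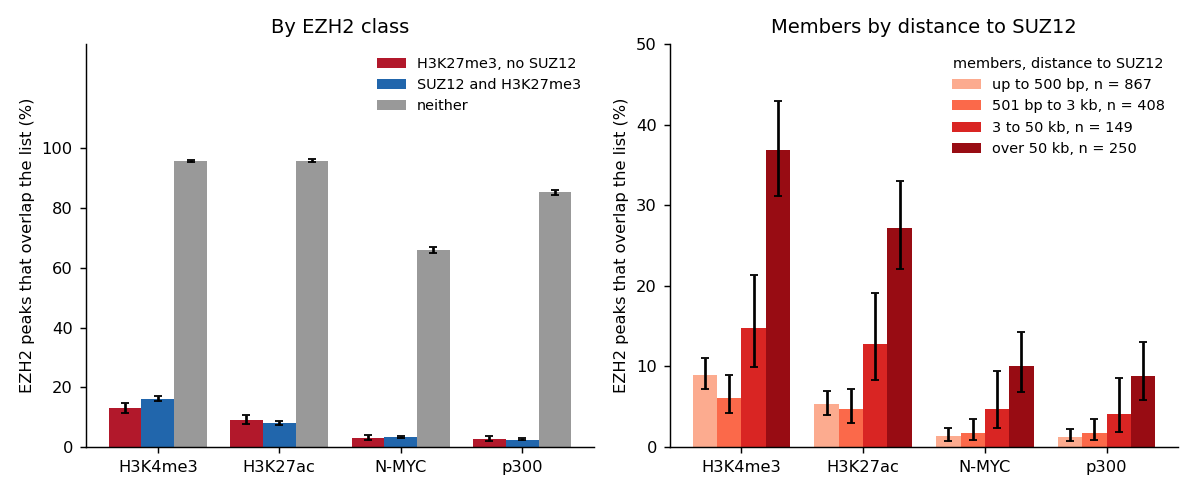
Percentage of EZH2 peaks that overlap each active list (bars from 0, with 95% Wilson intervals), on the left for H3K27me3-only peaks (red), peaks with both features (blue) and with neither (grey), on the right for H3K27me3-only peaks by distance to SUZ12. H3K4me3 runs from 8.88% of the peaks within 500 bp and 6.13% between 500 bp and 3 kb to 36.8% beyond 50 kb.

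The H3K4me3 peaks at these sites had lower fold enrichments than at EZH2 peaks with neither feature. Their fold enrichment had a median of 13.4, with quartiles of 7.56 and 21.4, against 8.61 at EZH2 peaks with both features and 31.0 (quartiles 25.2 and 36.4) at EZH2 peaks with neither. Among the 216 H3K27me3-only peaks with H3K4me3 the EZH2 fold enrichment had a Spearman rho of 0.340 with that of H3K4me3, given as a description. H3K27me3 was weaker there too, with a median fold enrichment of 6.65, against 12 at the 1436 peaks without an active list.

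All 4 active lists met at 27 H3K27me3-only peaks (1.61%, 1.11 to 2.34%), where 29.7% of all EZH2 peaks overlapped the 4. Among EZH2 peaks with both features the share was close, 108 of 8374 (1.29%, 1.07 to 1.55%). The 27 included 9 of the 12 strongest H3K27me3-only peaks by EZH2 fold enrichment, the value by which those 12 were chosen. Of all H3K27me3-only peaks 93.8% had the EZH2 summit inside an H3K27me3 peak, which the rule largely fixes (52.4% over all EZH2 peaks, most of the rest without the mark). At 7 of the 27 the EZH2 summit itself lay inside the H3K27me3 peak, whereas this held for 1391 of the 1436 peaks without an active list. At 17 of the 27 SUZ12 was over 50 kb away.

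The strongest H3K27me3-only peak spanned 2719 bp at the start of Bcl11b, on chromosome 12 from 108001678 to 108004396. Its fold enrichment was 10.8 for EZH2, 41.8 for H3K4me3, 19.3 for H3K27ac, 5.14 for N-MYC and 4.53 for p300, while the H3K27me3 peak inside it was 200 bp wide with 3.58. A SUZ12 peak lay 1058 bp away. Elmo1, which encodes an activator of Rac in cell migration, had 9.0 for EZH2 and 3.81 for an H3K27me3 peak of 200 bp, on chromosome 13 from 20090364 to 20091509. Id3 had 8.61 and 4.5, on chromosome 4 from 136143861 to 136145505, with H3K4me3 at 44.4. In all 3 the H3K27me3 call was a narrow insert within a broad EZH2 peak. Over the 123056 peaks of the H3K27me3 list the median width was 382 bp and the median fold enrichment 4.2. A width of 200 bp was the smallest of any H3K27me3 peak under an H3K27me3-only EZH2 peak. The calls at Bcl11b and Elmo1 were thus at that smallest width and below the median fold enrichment of their list.

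Bahd1 (a heterochromatin protein), Irf2bpl (a transcriptional regulator) and Hes5 (a repressor induced by Notch) followed with EZH2 at 8.13, 8.11 and 7.87. Their H3K27me3 fold enrichments were 3.51, 4.14 and 3.67. The distance to SUZ12 was 730 bp at Bahd1, 57059 bp at Irf2bpl and 7528 bp at Hes5. Cop1, a ubiquitin ligase gene, had 7.41 for EZH2 and lay 1818658 bp from SUZ12. Nxn (nucleoredoxin) and Trib2 (a pseudokinase) had 7.22 and 7.02, with H3K27me3 at 3.41 and 6.56.

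Gata3, a master regulator of T-cell development, had a pair of H3K27me3-only peaks near its start. The stronger, on chromosome 2 from 9877915 to 9878405, had EZH2 at 7.22 and no N-MYC call, and the weaker, from 9878476 to 9878684, had 3.88 with N-MYC at 5.87. Both shared an H3K4me3 peak of 48.9 and an H3K27ac peak of 28.3, and SUZ12 lay 1143 and 864 bp away. Tnfrsf21, which encodes death receptor 6, and Tent5c, a poly(A) polymerase gene, completed the 12 strongest with EZH2 at 7.15 and 6.84. Neither peak overlapped N-MYC, although an N-MYC peak lay within 1 kb of a listed start of Tent5c. The H3K27me3 fold enrichments at Tnfrsf21 and Tent5c were 6.81 and 6.80.

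The other peaks with all 4 active lists had EZH2 fold enrichments from 3.31 at Adcy9, an adenylate cyclase gene, to 6.82 at Fnip2, which encodes a folliculin partner. Egr2, a zinc finger factor induced by T-cell receptor signalling, had EZH2 at 5.87, H3K27me3 at 3.20, N-MYC at 7.14 and p300 at 3.53. Vegfa, an angiogenic growth factor gene, had 5.55, 5.34, 8.0 and 4.03 in the same order. Peaks at Chd7 (a chromatin remodeller) and inside Aff1 (an elongation factor subunit) lay 149 and 44 bp from SUZ12, whereas at Egr2 and Vegfa SUZ12 was 408621 and 155432 bp away.

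The 6 peaks farthest from SUZ12 with a q-value of at most 1e-05 included 3 on the X chromosome. Syn1 had EZH2 at 4.84 and H3K27me3 at 11, on X from 20920784 to 20921042, at 7072107 bp from SUZ12. Chst7, a sulfotransferase gene, had 4.64 and 11.9 at 6211950 bp, and Apln, which encodes the peptide apelin, had 4.84 and 10.4 at 2599401 bp. None of the 3 overlapped an active list. Mdga2, a synaptic adhesion gene, had 4.27 and 7.73 without an active list, at 2564558 bp. The other two carried active lists: the predicted gene Gm51965 all 4, with EZH2 at 5.69, and Dse, which encodes an enzyme of dermatan sulfate synthesis, H3K4me3 at 13.2 and H3K27ac at 3.67.

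The X chromosome stood above the autosomes in its share of these peaks. There, 38 of 239 EZH2 peaks (15.9%, 11.8 to 21.1%) were H3K27me3-only, against 7.04% to 10.9% on single autosomes. Of the 38, 18 (47.4%, 32.5 to 62.7%) lay over 3 kb from SUZ12, against 14.1% to 32.6% on autosomes. The X had 125 SUZ12 peaks, and each autosome between 277 and 1096. EZH2 peaks were fewer on the X as well, 239 against 482 to 1696 on single autosomes. The part of these smaller numbers of SUZ12 and EZH2 calls in the result was not tested.

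Relative to genes, the H3K27me3-only peaks lay mostly away from starts. Of the 1674, 358 (21.4%, 19.5 to 23.4%) came within 1 kb of a listed start of a protein-coding gene, where 49.8% of all EZH2 peaks did. This was 10.6 points below EZH2 peaks with both features (-12.8 to -8.37, lower on 18 of 20 chromosomes), but at widths of 200 to 300 bp the difference was -0.475 points (-3.27 to 2.44), an interval that includes 0. Beyond 50 kb from SUZ12 122 of 250 (48.8%, 42.7 to 55%) lay at starts, against 16.3% within 3 kb of SUZ12. Starts were listed for 17492 of 21887 protein-coding genes and for none of the 511 on chromosome 18, so these shares are lower bounds. With a window of 5 kb the share at starts was 45.9%. Either end of any protein-coding gene lay within 1 kb of 26.8% of the peaks, where 58.1% of all EZH2 peaks met this.

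At least 1 H3K27me3-only peak lay within 1 kb of the start of 329 genes, or 1.88% of the 17492. SUZ12 was called in the same window at 187 of them and not at 142. H3K4me3 was present in the window of 63 of the former (33.7%, 27.3 to 40.7%) and 84 of the latter (59.2%, 50.9 to 66.9%), where 52.1% of all listed genes had it. Without SUZ12 in the window, N-MYC was present at 45 genes (31.7%), near the 34.0% of all listed genes, and p300 at 37 (26.1%), against 40.6% of all listed genes. With SUZ12 in the window the shares were 11.8% and 11.2%.

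Developmental regulators, the classic Polycomb targets, mostly had EZH2 peaks with SUZ12 at the start. None of 22 Hox genes with a listed start had an H3K27me3-only peak there, where 1.88% of all listed genes did. An EZH2 peak with SUZ12 and H3K27me3 lay at 19, a class found at 11.3% of all listed genes. Among the Pax and other homeobox factors the counts were 1 and 33 of 35, and among Sox and T-box factors 0 and 11 of 15. Wnt ligands and Frizzled receptors had 0 and 16 of 21. For the H3K27me3-only peaks, counts of 0 and 1 in lists of these sizes are near the share over all listed genes. Irx2, an Iroquois homeobox gene, was the 1 gene of the Pax and homeobox list, with EZH2 at 4.79 and H3K27me3 at 20 at 3294 bp from SUZ12. When either gene end was counted, an H3K27me3-only peak was found at 0 of 39 Hox genes, 4 of 48 Pax and homeobox genes and 3 of 23 Sox and T-box genes, where 1.96% of 21887 genes had one. The H3K27me3-only peaks of the HoxB domain thus lay over 1 kb from the ends of the Hox genes.

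Channel and adhesion genes gave counts of 1 to 3 per list, where 1.88% of all listed genes had an H3K27me3-only peak at the start. Counts this small do not set these lists apart from that share. Of 69 potassium channel genes 2 (2.9%) had an H3K27me3-only peak at the start, Kcne3 (EZH2 3.86, H3K27me3 11.6) and Kcna2 (2.83 and 10.1), each with SUZ12 in the window. Of 55 sodium, calcium, glutamate and GABA channel genes 3 (5.45%) had one. Gabra4 and Gabrb1, neighbouring GABA receptor genes, shared a peak with EZH2 at 3.84, 54 bp from SUZ12, and Grik2, a kainate receptor gene, had 3.69 at 1099536 bp from SUZ12. Pcdh8 was the 1 of 27 cadherin genes (3.7%), and 7 of 290 solute carrier genes (2.41%) were near the background of 1.88%. The leading solute carriers were Slc38a5 (EZH2 4.44), Slc19a3 (4.42), Slc9a3r2 (4.21) and Slc13a3 (3.8). Krt18 was the 1 of 36 keratin genes (EZH2 3.94), and 0 of 1267 olfactory and vomeronasal receptor genes had such a peak.

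The immune lists gave a few genes each. Of 28 T-cell genes with a listed start, 4 had one (14.3%, against 1.88% of all listed genes): Bcl11b, Gata3, Runx3 and Rag2. H3K4me3 was called in the window at 3 of the 4. EZH2 peaks with neither feature lay at 17 of the 28 (60.7%, against 34.0% of all listed genes). Those with both features lay at 3 (10.7%, against 11.3%). Runx3, a CD8-lineage factor, had EZH2 at 4.95, H3K27me3 at 7.28, H3K4me3 at 22.5 and N-MYC at 6.4, and SUZ12 lay 42 bp away. Rag2, which encodes part of the antigen-receptor recombinase, had EZH2 at 3.69 and H3K27me3 at 10.7 with no active list. Because Bcl11b and Gata3 had been seen in earlier results of these data, the count of 4 is a description. It was 2 of 41 when either gene end was counted in place of the listed starts.

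Of 66 interleukin and receptor genes, 3 (4.55%) had an H3K27me3-only peak at the start, where 1.88% of all listed genes did. In each no SUZ12 peak was called in the window while an H3K4me3 peak was. This held for 84 of all 329 genes with an H3K27me3-only peak at the start. Il15ra, a receptor chain for interleukin 15, had EZH2 at 5.43, H3K27me3 at 10.7, H3K4me3 at 29.0, H3K27ac at 14.2 and N-MYC at 4.37. Il6ra had EZH2 at 4.12 and H3K4me3 at 4.13, and Il1r1 had 3.84 and 5.45 with H3K27me3 at 16.3. Among 39 chemokine genes 2 (5.13%) had one, Cxcl2 (EZH2 4.25) and Ccl27b (3.99), both with SUZ12 in the window. Tnfrsf21 and Tnfrsf19 were the 2 of 25 TNF family genes (8%), and Tnfrsf19 had 4 peaks. Counts of 2 or 3 are too small to set these lists apart from the 1.88% of all listed genes.

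No H3K27me3-only peak lay at the listed start of 20 B-cell and myeloid genes, 6 CDK inhibitors, 11 PRC2 genes or 75 ribosomal protein genes. Since 1.88% of all listed genes had one, counts of 0 in lists of these sizes are near that share. An H3K27me3-only peak lay over the body of 3 of 25 B-cell and myeloid genes, and of 787 of all 21887 protein-coding genes. EZH2 peaks with neither feature, found at 34.0% of listed genes, lay at 9 of the 11 PRC2 genes and 59 of the 75 ribosomal protein genes. EZH2 peaks with both features, found at 11.3% of listed genes, lay at 5 of the 20 B-cell and myeloid genes.

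Promoter sequence was compared in the 300 bp windows of RefSeq, from 250 bases before to 50 after a start. An H3K27me3-only peak overlapped 172 of 21263 such windows, at 161 genes. The median ratio of observed to expected CpG was 0.722 in these, 0.749 in windows with an EZH2 peak with both features, 0.870 with neither feature and 0.567 over all windows. A ratio of at least 0.6 was found in 125 of 172 (72.7%), where 47.7% of all windows had it. When the H3K27me3-only peak carried H3K4me3 the share was 60 of 70 (85.7%), and without H3K4me3 65 of 102 (63.7%).

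**Figure D5:**
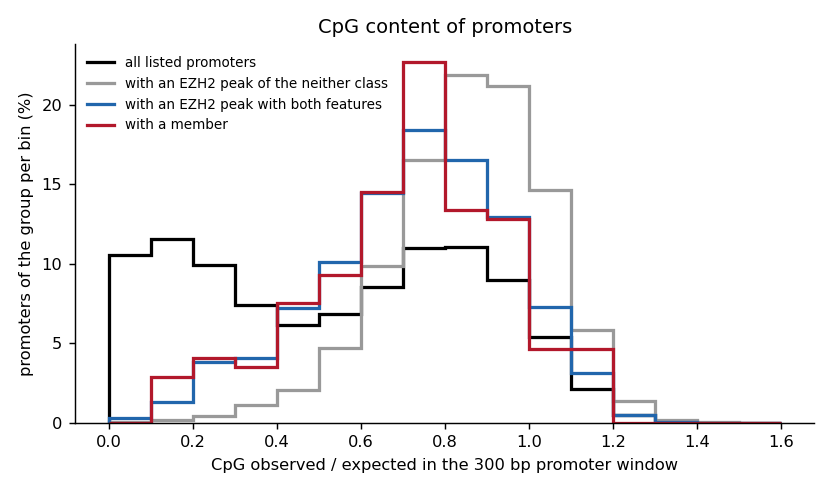
Percentage of 300 bp promoter windows per bin of the observed to expected CpG ratio (x axis), for all listed promoters (black), promoters with an H3K27me3-only EZH2 peak (red), with an EZH2 peak with both features (blue) and with neither (grey). The red and blue outlines peak near their medians of 0.722 and 0.749, and the grey one lies to the right.

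A pair of motifs was searched on both strands of the same windows. The E-box CACGTG, the site that MYC proteins bind with MAX, was present in 15 of 172 windows with an H3K27me3-only peak (8.72%, 5.36 to 13.9%), and in 7.84% of all windows. The ETS-type core CCGGAA was present in 20 of 172 (11.6%, 7.65 to 17.3%), in 10.5% of windows with an EZH2 peak with both features, in 38.1% with neither feature and in 18.7% of all windows. None of the 6 printed stretches held CACGTG. These matches describe letters in the windows, not binding.

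The number of H3K27me3-only peaks depended on how peaks were drawn. Limiting every list to the 9798 peaks of the shortest left 172, of which 9.88% carried H3K4me3 and 1.74% H3K27ac. Of the 515 joined regions 25.4% carried H3K4me3 and 19.8% H3K27ac. Requiring a gap of 3 kb to SUZ12 left 399.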

How the data were processed

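Each of 7 ChIPmentation libraries had 1 deposited peak list; the 2 inputs were not used here. The submitters' processing notes list FastQC, Bowtie2, SAMtools, MACS2 and deepTools and the builds mm10 and GRCm38, with no order or versions. Fold enrichment is the authors' deposited ratio of signal to background, and p- and q-values were deposited as −log10 values. The deposited whole-number score was not used. Lists end near a −log10 q of 2, read depth is not stated, and whether libraries were pooled is not given in the sources used here.

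Overlap of at least 1 bp counted as shared. Intervals are 95% Wilson and, for differences, Newcombe, computed with Python 3.11.15, numpy 2.4.6, pandas 2.3.3 and scipy 1.17.1. Overlap and distance steps were tested on simulated data, where all 4000 planted peaks returned their class. Gene names and starts came from RefSeq tables of GRCm38.p6. The nearest gene is the nearest protein-coding gene body. Of the H3K4me3 summits 50% lay within 1 kb of a listed start, against 3.66% after a shift of the starts by 50 kb. Exons and introns were not analysed here.

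Peaks named were the 12 of highest EZH2 and the 6 of highest H3K27me3 fold enrichment, the 6 farthest from SUZ12 at a q-value of at most 1e-05, those on all 4 active lists, and up to 4 genes of each list of genes. Peaks and lists were chosen with earlier results of these data known. Width bands, distance groups, domains, promoter sequence, motifs and the X chromosome were examined after seeing the data.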

Additional observations from a re-analysis of the deposited data

How the results depend on the processing

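For the 7 main values, 55 alternatives were computed: 16 moved by less than the 95% interval (for the count of peaks, by less than 1.5 times) and 39 by more. For these shifts the cause was not tested. No paired analysis was possible because each antibody had 1 library. Values below are in the order count of H3K27me3-only peaks, percentage within 3 kb of SUZ12, percentage with H3K4me3, H3K27ac, N-MYC and p300, and percentage at gene starts. Asking for 50% of the shorter peak to overlap gave 2389, 85.7, 9.13, 5.48, 1.26, 0.963 and 20.5. A q-value of at most 1e-05 in every list gave 1102, 65.7, 16.3, 11.2, 4.45, 3.18 and 24.5. A fold enrichment of at least 4 gave 1795, 58.7, 14.5, 7.30, 2.90, 1.95 and 24.5. Lists of 9798 peaks each gave 172, 73.3, 9.88, 1.74, 4.07, 1.16 and 27.3. EZH2 peaks merged within 3 kb gave 515, 33.4, 25.4, 19.8, 8.93, 7.96 and 36.7. Requiring no SUZ12 peak within 3 kb gave 399, then 28.6, 21.8, 8.02, 7.02 and 37.6 for the marks and gene starts. Without X and Y the values were 1636, 76.7, 12.9, 9.11, 3.12, 2.81 and 20.9. For gene starts, a window of 5 kb gave 45.9, the summit 20.3 and either end of all genes 26.8. Reading the EZH2 summit gave 11.8, 8.06, 1.55 and 1.37 for the 4 active lists. The last 2 kinds of alternative (either end, and the summit for the active lists) were chosen after seeing the data. Depth is unknown and limits what a missing call can say.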

Other observations

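Several gene starts with an H3K27me3-only EZH2 peak over 50 kb from SUZ12 belong to tissues other than thymus or to chromatin regulation. They were chosen after their values were seen, and none is tested. Among genes known from the nervous system, Drd1 (a dopamine receptor) had EZH2 at 4.16 and H3K27me3 at 9.90, Rgs7 (a regulator of G-protein signalling) had 3.68 and 11.5, and Ppfia2 (a synaptic scaffold) had 3.65 and 10.4. No H3K4me3, H3K27ac, N-MYC or p300 peak lay within 1 kb of these 3 starts. The adult globin gene Hba-a1 and its neighbour Hbq1b, on chromosome 11, had EZH2 at 4.98 and 4.12 and H3K27me3 at 8.31 and 8.73, together with H3K4me3 and H3K27ac in the window.

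Setdb1, which encodes an H3K9 methyltransferase, had EZH2 at 6.59 and H3K27me3 at 4.47 with H3K4me3, H3K27ac and p300 in the window and no N-MYC. Klf7, a zinc finger factor gene, had EZH2 at 4.44 and H3K27me3 at 7.24 with all 4 active lists in the window, at 570249 bp from SUZ12. E2f8, an atypical E2F factor gene, had 4.61 and 4.70 with H3K4me3, H3K27ac and p300.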
